A study of Homo sapiens with 12 samples.

Results

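The 10 genes described are members of the BCL2 family that promote or restrain cell death at the mitochondrion, chosen by symbol from the 20531 genes listed for each sample: BMF, BCL2L11, BBC3, PMAIP1 and BIK, which encode BH3-only proteins, BAX and BAK1, which encode the effectors, and BCL2, BCL2L1 and MCL1, which encode pro-survival proteins. All 10 were listed and all 10 were tested. RNAseq was run on SKBR-3, a long-established breast carcinoma line with amplified HER2 and no ER, grown in RPMI with fetal bovine serum. The 12 samples fell into 4 groups of 3 replicates. NT DMSO cells received a non-targeting (NT) siRNA control pool for 48 h and then the solvent DMSO for 24 h. NT lapatinib cells received the NT pool for 48 h and then 300 nM lapatinib, a kinase inhibitor of HER2 and EGFR, for 24 h. FOXA1 DMSO and FOXA1 lapatinib cells received a siRNA pool against FOXA1, a forkhead transcription factor of luminal cells, followed by the same DMSO or lapatinib exposure. These times are those of the labels, and the study's methods state a shorter siRNA time before the drug. The study asked whether FOXA1 was needed for the transcriptional response to HER2 inhibition, and the comparisons below put that question to the survival and death genes. All groups are a single cell line with a transient, incomplete knockdown, and no label says whether replicates were separate cultures, so p-values measure the spread between these samples, which may be technical.

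BCL2 family proteins decide whether the outer mitochondrial membrane is permeabilised and cytochrome c released. BAX and BAK form the pores, BCL2, BCL-XL (the product of BCL2L1) and MCL1 hold them and their activators in check, and the BH3-only proteins BIM (BCL2L11), BMF, PUMA (BBC3), NOXA (PMAIP1) and BIK bind the pro-survival proteins or activate the effectors. In HER2-driven breast cells, signalling through ERK and AKT is known to restrain BIM, both by protein turnover and through FOXO transcription factors. RNA levels say nothing about the phosphorylation and turnover by which many of these proteins are controlled.

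Library totals ranged from 25749578 to 32271850 expected counts. The target of the knockdown was checked first. FOXA1 had 8446, 8309 and 8767 normalized counts in NT DMSO, 12672, 12168 and 13177 in NT lapatinib, 1160.1, 1362 and 1564 in FOXA1 DMSO and 1642, 1889 and 2384 in FOXA1 lapatinib. It was lower with its siRNA by a log2 fold change of -2.63 ± 0.10 (SE) in DMSO (edgeR adjusted p = 4.55e-06) and -2.69 ± 0.12 in lapatinib (edgeR adjusted p = 6.1e-06), so that every sample matched its siRNA label. ERBB2, the HER2 gene, stood at 2718 to 6105 TPM across the 12 samples, while the progesterone receptor gene PGR had 0 to 1 counts, the leukocyte gene PTPRC 0 to 5 and the endothelial gene PECAM1 0 to 6. The estrogen receptor gene ESR1 had 12 to 42 counts. Of the collagen genes of stroma COL1A2 had 0 to 2 counts, but COL1A1 had 240 to 546. Because RNA was taken from whole cultures, fewer cells of a kind and less RNA per cell cannot be told apart.

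Levels of the members were compared on the TPM scale, which divides by transcript length. In NT DMSO cells MCL1 was the most abundant at 169 to 174 TPM, followed by BCL2L1 at 85.8 to 86.1, BAK1 at 76.0 to 82.4, BAX at 38.6 to 43.1 and BCL2L11 at 28 to 35.4 TPM. None of these neighbours overlapped. BMF at 7.2 to 7.86 TPM, BBC3 at 4.25 to 7.31 and BIK at 4.24 to 6.69 came next, and the ranges of BMF and BBC3 and those of BBC3 and BIK overlapped. PMAIP1 stood at 1.20 to 1.42 TPM and BCL2 at only 0.44 to 0.56 TPM, so that MCL1 and BCL2L1 held nearly the whole pro-survival sum. Within the sum of the BH3-only members, BCL2L11 made up 61.2% ± 5.67 (SD, n = 3) of TPM and BMF 14.9% ± 1.28. That sum leaves out the BH3-only genes BAD, at 94.8 to 101.5 TPM, and BID, at 27.7 to 29.4.

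**Figure D1:**
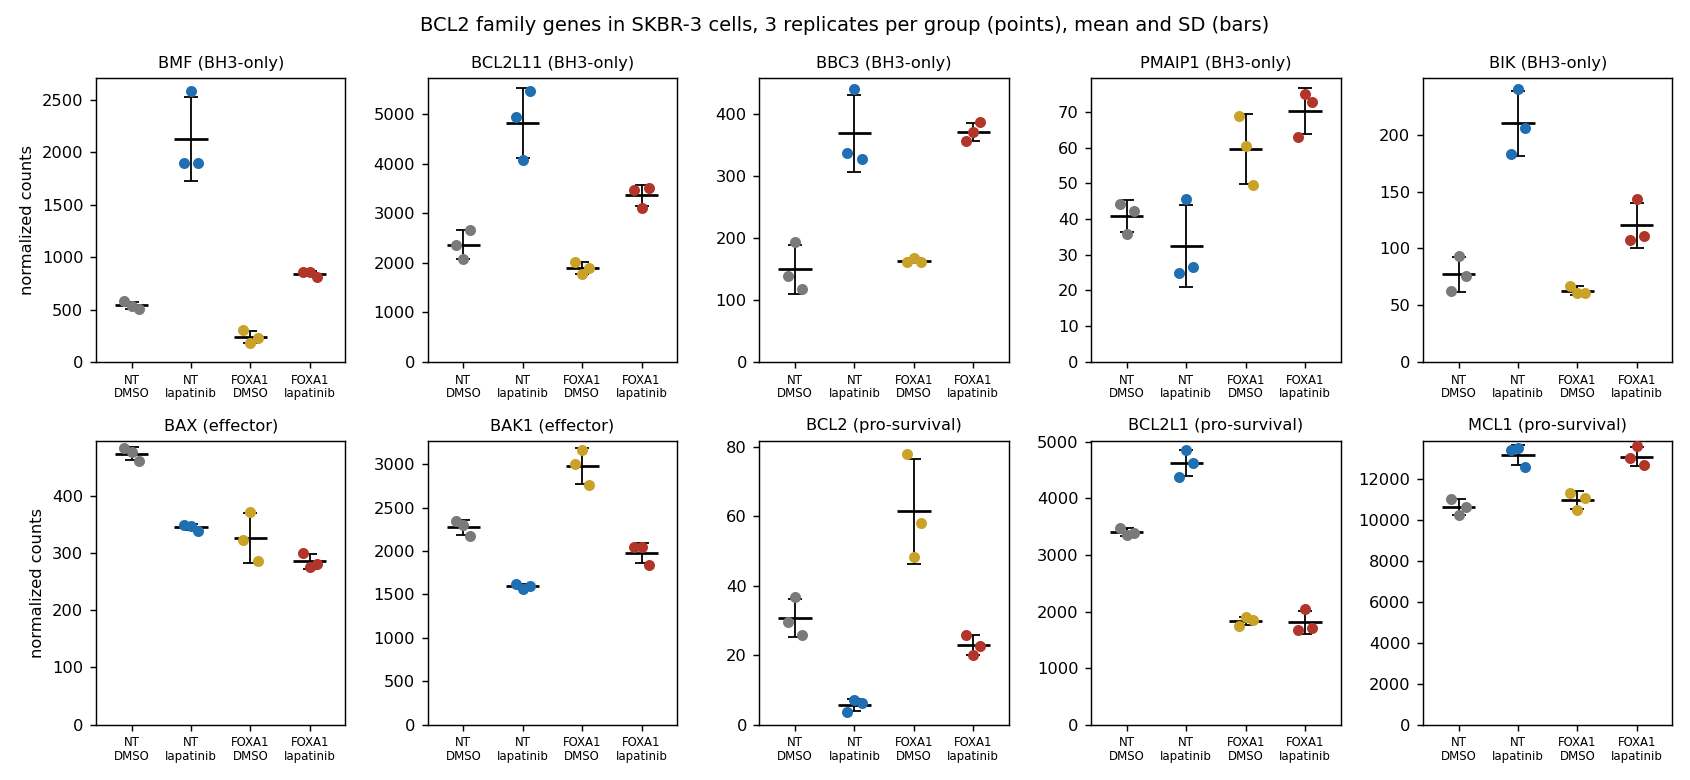
Normalized counts of the 10 genes (y axes, each starting at 0) in the 4 groups of siRNA and drug (x axes); points are single samples and bars the mean and SD of 3 replicates. BMF, BCL2L11, BBC3 and BIK stood above their DMSO samples in all 6 lapatinib samples, and BCL2L1 stood at 1666 to 2049 in all 6 samples with FOXA1 siRNA against 3352 to 4849 with NT siRNA.

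Since the siRNA targeted a forkhead factor, the promoters of the members were read for the forkhead motif GTAAACA or GTCAACA on either strand, in windows of 250 bases before to 50 bases after each start in the RefSeq table for GRCh38.p14. The table held 10 windows for 8 of the 10 members, and none for BIK and MCL1. BCL2L11 was the single member with a match. Its motif, GTAAACA, lies on chr2:111120691-111120697, 223 to 217 bases before the start. A match was found in 5.62% of all 35116 windows and in 6.82% of 27305 genes, so 1 of 8 members is a description and not a site, and no match says only that these letters are not in the window. The sequences below are those of BCL2L11, for its match, and of BMF and BCL2L1, the members whose RNA was lowest relative to NT siRNA in both drug conditions (5′ to 3′ along the gene, the motif in capitals).
BCL2L11, chr2:111120664-111120963, plus strand: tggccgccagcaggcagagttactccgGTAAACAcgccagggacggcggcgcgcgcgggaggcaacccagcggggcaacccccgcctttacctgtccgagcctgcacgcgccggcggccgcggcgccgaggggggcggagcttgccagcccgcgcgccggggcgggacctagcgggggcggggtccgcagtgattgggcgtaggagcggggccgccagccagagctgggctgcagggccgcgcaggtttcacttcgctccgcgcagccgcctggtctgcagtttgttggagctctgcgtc
BMF, chr15:40108830-40109129, minus strand: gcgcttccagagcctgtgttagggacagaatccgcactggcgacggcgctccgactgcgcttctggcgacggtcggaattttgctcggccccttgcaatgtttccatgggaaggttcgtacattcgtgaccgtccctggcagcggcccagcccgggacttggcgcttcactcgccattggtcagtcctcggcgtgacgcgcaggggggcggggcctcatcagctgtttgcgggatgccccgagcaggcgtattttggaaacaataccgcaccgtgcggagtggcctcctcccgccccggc
BCL2L1, chr20:31723914-31724213, minus strand: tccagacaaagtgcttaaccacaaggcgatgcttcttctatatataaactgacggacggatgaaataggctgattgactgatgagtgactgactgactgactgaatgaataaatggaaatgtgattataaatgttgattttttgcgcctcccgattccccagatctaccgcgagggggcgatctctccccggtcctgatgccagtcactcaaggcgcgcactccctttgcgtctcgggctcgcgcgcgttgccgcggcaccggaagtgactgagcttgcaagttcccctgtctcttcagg
The BCL2L11 gene spans chr2:111120914-111168445, BMF chr15:40087890-40108879 and BCL2L1 chr20:31664452-31723963 in the same annotation. Of the other members, BAK1 lies at chr6:33572552-33580276, BBC3 at chr19:47220824-47232860, BAX at chr19:48954875-48961798, PMAIP1 at chr18:59899996-59904305, BCL2 at chr18:63123346-63320090, BIK at chr22:43110750-43129712 and MCL1 at chr1:150574558-150579610. In the GENCODE annotation, opposite-strand RNAs share 461 of 5447 exon bases of BMF (BMF-AS1), 727 of 6550 of BCL2L11 (MIR4435-2HG), 80 of 3185 of BBC3 (MIR3190) and 91 of 2212 of BAK1 (GGNBP1), and without strand the reads there cannot be told apart. BBC3 also shares 76 exon bases with MIR3191 on its own strand.

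Lapatinib raised 4 of the 5 BH3-only members in cells with NT siRNA, lowered both effector members and moved the pro-survival members in different directions. BID and BAD, BH3-only genes outside the 10, were lower (log2 fold change -1.03 and -0.43, edgeR adjusted p = 1.75e-05 and 0.000584). Of the 10 members 6 were higher and 3 lower (edgeR's quasi-likelihood test, Benjamini-Hochberg adjusted p below 0.05), where 30.5% of the 13713 genes tested were higher and 29.2% lower. A stricter call also required a change of 1 or more in log2 units. By it 4 members were higher (3 to 4 when any 1 sample was left out) and 1 lower, against 6.64% and 7.13% of all genes. BCL2 was among the lower ones, and the 1 lower member of the stricter call. It entered this test only through its DMSO samples, so its call is given as a description. In cells with FOXA1 siRNA, 5 members were higher and 2 lower where 29.0% and 29.1% of 13745 genes were. Under the stricter call 2 were higher (2 to 3 when any 1 sample was left out) and 1 lower against 4.93% and 5.12%. Over the members the median log2 fold change was 0.397 (NT siRNA) and 0.255 (FOXA1 siRNA), beside 0.0251 and 0.00604 over all genes tested.

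BMF, which links the cytoskeleton to mitochondrial death signalling, changed most among the BH3-only genes. It had 577, 532 and 509 normalized counts in NT DMSO and 1899, 2586 and 1900.1 in NT lapatinib. In FOXA1 DMSO it had 301, 182 and 232, and in FOXA1 lapatinib 857, 861 and 813. The 4 groups did not overlap, and the FOXA1 lapatinib samples stood between the 2 NT groups. The log2 fold change with lapatinib was 2.0 ± 0.13 (SE) with NT siRNA (edgeR adjusted p = 7.54e-06) and 1.83 ± 0.15 with FOXA1 siRNA (edgeR adjusted p = 3.15e-05). On the log scale the responses differed by -0.16 ± 0.22 (interaction of siRNA and drug, edgeR adjusted p = 0.754). NT cells gained 1589 ± 404 normalized counts (SD, n = 3) and FOXA1 siRNA cells 605 ± 65.1, which is 38.1% as much.

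BCL2L11, the gene of the activator BIM, had 2361, 2076 and 2675 normalized counts in NT DMSO and 4942, 4073 and 5478 in NT lapatinib. With FOXA1 siRNA the DMSO samples had 2017, 1767 and 1906 and the lapatinib samples 3466, 3119 and 3507. Every lapatinib sample was above every DMSO sample, and under the same drug the FOXA1 samples were below all NT samples. Lapatinib raised it by 1.05 ± 0.12 (log2, SE) with NT siRNA (edgeR adjusted p = 0.000132) and by 0.83 ± 0.07 with FOXA1 siRNA (edgeR adjusted p = 2.58e-05), with a difference between the responses of -0.20 ± 0.15 (edgeR adjusted p = 0.506). The gain in normalized counts with FOXA1 siRNA was 59.6% of that with NT siRNA.

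BBC3, the gene of PUMA, which binds all pro-survival members, had 139, 193 and 117 normalized counts in NT DMSO and 338, 441 and 328 in NT lapatinib. FOXA1 siRNA cells had 161, 168 and 162 with DMSO and 358, 371 and 387 with lapatinib. The lapatinib samples were all above the DMSO samples, and the groups of the 2 siRNAs overlapped under either drug. The log2 change with lapatinib was 1.32 ± 0.20 (SE) with NT siRNA (edgeR adjusted p = 0.000607) and 1.19 ± 0.09 with FOXA1 siRNA (edgeR adjusted p = 1.71e-05). Its gain with FOXA1 siRNA was 94.9% of that with NT siRNA, the nearest to equal among the 4 BH3-only genes that rose.

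BIK, a BH3-only protein of the endoplasmic reticulum, had 62.1, 93.2 and 75.7 normalized counts in NT DMSO and 183, 241 and 206 in NT lapatinib. It had 66.9, 60.5 and 60.9 in FOXA1 DMSO and 107, 143 and 111 in FOXA1 lapatinib. The lapatinib groups did not overlap with each other or with DMSO, whereas the DMSO groups of the 2 siRNAs did overlap. It rose by 1.47 ± 0.18 (log2, SE) with NT siRNA (edgeR adjusted p = 0.000208) and by 0.95 ± 0.16 with FOXA1 siRNA (edgeR adjusted p = 0.00126). The difference between these responses, -0.51 ± 0.25, did not pass the test (edgeR adjusted p = 0.252), and the gain in normalized counts was 43.3% as large with FOXA1 siRNA.

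PMAIP1, the gene of NOXA, which neutralises MCL1, was the BH3-only member without a lapatinib call. It had 44.3, 35.7 and 42.2 normalized counts in NT DMSO and 25, 45.7 and 26.7 in NT lapatinib. With FOXA1 siRNA it had 68.9, 60.5 and 49.5 in DMSO and 63.0, 75.0 and 72.7 in lapatinib. DMSO and lapatinib samples overlapped with either siRNA. The log2 changes were -0.30 ± 0.28 (SE; edgeR adjusted p = 0.382) and 0.25 ± 0.18 (edgeR adjusted p = 0.265).

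BAX and BAK1 encode the pore-forming proteins. BAX had 483, 477 and 461 normalized counts in NT DMSO and 348, 348 and 339 in NT lapatinib. With FOXA1 siRNA it had 322, 371 and 286 in DMSO and 301, 276 and 280.4 in lapatinib, groups that overlapped. It fell by 0.44 ± 0.08 on the log2 scale (SE) with lapatinib and NT siRNA (edgeR adjusted p = 0.00146), and its change with FOXA1 siRNA was -0.18 ± 0.11 (edgeR adjusted p = 0.192). These responses were not shown to differ (interaction 0.27 ± 0.13, edgeR adjusted p = 0.262).

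BAK1 had 2348, 2295 and 2176 normalized counts in NT DMSO and 1620.5, 1566 and 1598 in NT lapatinib. In FOXA1 DMSO it had 3009, 3170.1 and 2758, and in FOXA1 lapatinib 2045, 2050 and 1839. The 4 groups did not overlap: BAK1 was lower with lapatinib under either siRNA and higher with FOXA1 siRNA under either drug. Lapatinib changed it by -0.49 ± 0.06 (log2, SE) with NT siRNA (edgeR adjusted p = 0.000119) and by -0.58 ± 0.07 with FOXA1 siRNA (edgeR adjusted p = 0.00015).

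Among the pro-survival genes, BCL2 fell. It had 29.6, 36.7 and 25.9 normalized counts in NT DMSO and 3.57, 6.96 and 6.16 in NT lapatinib, and it passed the filter there only through the DMSO samples. The call with NT siRNA is therefore given as a description. With FOXA1 siRNA it had 77.9, 48.4 and 58.1 in DMSO and 25.8, 20.2 and 22.5 in lapatinib. No groups compared overlapped. The log2 change was -2.40 ± 0.34 (SE) with NT siRNA (edgeR adjusted p = 0.000432) and -1.41 ± 0.24 with FOXA1 siRNA (edgeR adjusted p = 0.00126). Summed over 3 replicates there were 94 counts in NT DMSO, 16 in NT lapatinib, 191 in FOXA1 DMSO and 68 in FOXA1 lapatinib. For NT siRNA the rate ratio of lapatinib to DMSO was 0.183 (exact 95% interval 0.101 to 0.313, covering counting error only) and for FOXA1 siRNA 0.365 (0.272 to 0.483), and the difference of responses, 0.99 ± 0.41 (log2), did not pass the test (edgeR adjusted p = 0.177). The mean transcript length the authors' tool assigned to BCL2 ranged from 3251 to 6757 bases across samples, so its TPM rests on few reads and on a changing length.

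BCL2L1, the gene of BCL-XL, had 3476, 3352 and 3388 normalized counts in NT DMSO and 4387, 4848 and 4626 in NT lapatinib, with all lapatinib samples higher. With FOXA1 siRNA it had 1747, 1899 and 1853 in DMSO and 1666, 2049 and 1706 in lapatinib, groups that overlapped. Lapatinib raised it by 0.46 ± 0.05 (log2, SE) with NT siRNA (edgeR adjusted p = 0.000104), while the change with FOXA1 siRNA was -0.01 ± 0.08 (edgeR adjusted p = 0.91). This was the single member whose lapatinib response was called as different between the siRNAs, by -0.46 ± 0.10 (edgeR adjusted p = 0.019). The member counts for the interaction were 0 higher and 1 lower, beside 3.99% and 3.20% of 14012 genes. Those shares are 559 and 449 genes, and the paired fit, blocked by replicate number, gave 1561 and 1292 genes and called the same member. The difference had an adjusted p of 0.05002 without FOXA1 lapatinib replicate 1 (log2 difference -0.41), which was the lowest value of its group. Exons of BCL2L1 share 1735 of 4197 bases with the opposite-strand RNA ABALON, and the sources used here do not say whether reads were counted by strand.

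MCL1 had 11044, 10226 and 10631 normalized counts in NT DMSO and 13406, 13524 and 12606 in NT lapatinib. With FOXA1 siRNA the DMSO samples had 11333, 10479 and 11078 and the lapatinib samples 13028, 13600 and 12666. Lapatinib samples were all above DMSO samples, and siRNA groups overlapped under either drug. MCL1 rose by 0.33 ± 0.05 (log2, SE) with NT siRNA (edgeR adjusted p = 0.000505) and by 0.26 ± 0.05 with FOXA1 siRNA (edgeR adjusted p = 0.00144). 

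**Figure D2:**
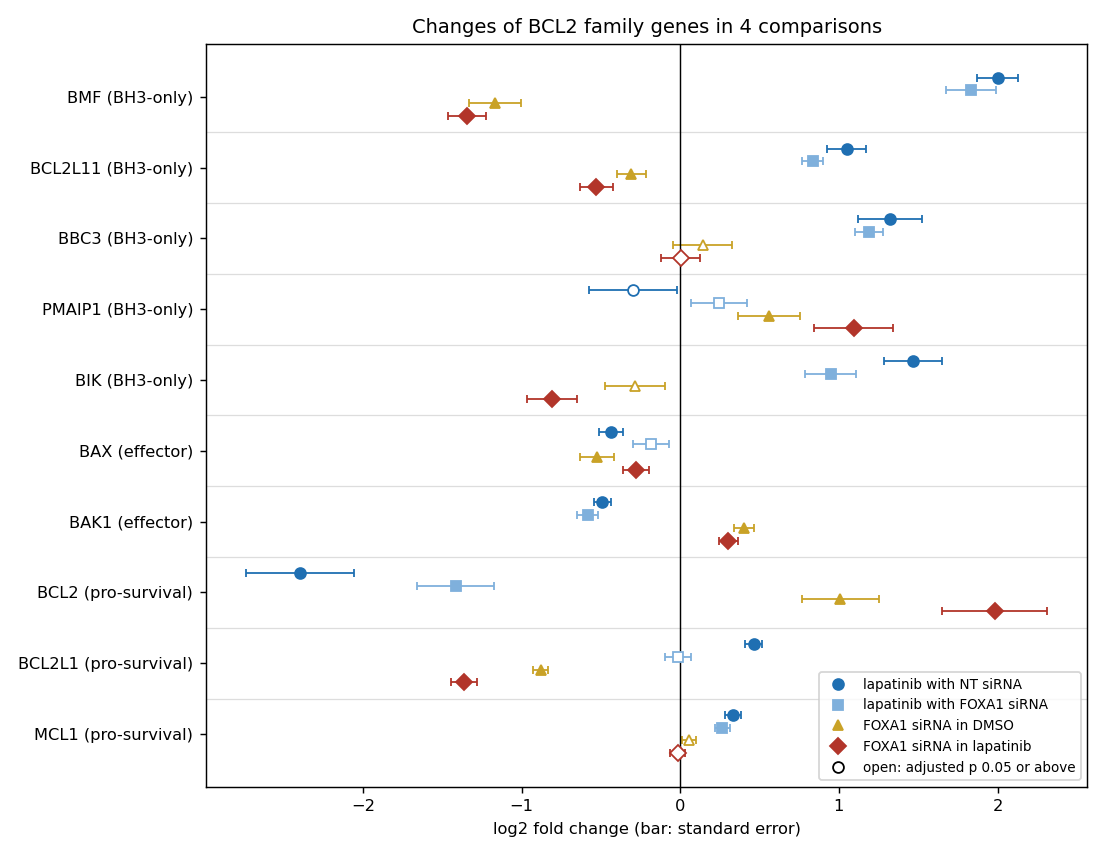
Log2 fold change (x axis, bar: standard error) of each gene (y axis) for lapatinib with either siRNA and for FOXA1 siRNA in either drug condition; filled symbols passed the adjusted p of 0.05. BMF, BCL2L11, BBC3 and BIK lie to the right for lapatinib, BAK1 and BCL2 lie to the left for lapatinib and to the right for FOXA1 siRNA, and BCL2L1 lies at -0.88 and -1.36 for FOXA1 siRNA.

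FOXA1 siRNA was then compared with NT siRNA under each drug, comparisons that share the DMSO or lapatinib samples with those above. In DMSO, 3 members were higher and 4 lower where 21.9% and 21.3% of 13694 genes were, and under the stricter call 1 was higher and 1 lower against 4.06% and 2.77% of genes. In lapatinib, 3 members were higher and 5 lower where 22.7% and 22.2% of 13727 genes were, and 2 higher and 2 lower under the stricter call against 4.51% and 3.90%. BCL2 entered the lapatinib test only through its FOXA1 siRNA samples, having fewer than 10 counts in every NT lapatinib sample. The median log2 fold change of the members was -0.113 in DMSO and -0.148 in lapatinib, beside -0.00535 and -0.00516 over all genes.

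BMF, BCL2L11, BAX and BCL2L1 were lower with FOXA1 siRNA under both drugs. BCL2L1 fell by 0.88 ± 0.05 (log2, SE) in DMSO (edgeR adjusted p = 1.44e-05) and by 1.36 ± 0.08 in lapatinib (edgeR adjusted p = 1.33e-05). BMF fell by 1.17 ± 0.16 (edgeR adjusted p = 0.000883) and by 1.34 ± 0.12 (edgeR adjusted p = 7.27e-05). BCL2L11 fell by less, 0.31 ± 0.09 (edgeR adjusted p = 0.0258) and 0.53 ± 0.10 (edgeR adjusted p = 0.00408). BAX fell by 0.52 ± 0.11 (edgeR adjusted p = 0.005) and by 0.28 ± 0.08 (edgeR adjusted p = 0.0258). The call of BCL2L11 in DMSO was lost without NT DMSO replicate 1 or 3, or FOXA1 DMSO replicate 2 or 3, with adjusted p of up to 0.0761. That of BAX in lapatinib was lost without NT lapatinib replicate 1 or 3, or FOXA1 lapatinib replicate 2 or 3, with adjusted p of up to 0.081.

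BCL2, BAK1 and PMAIP1 were higher with FOXA1 siRNA. BCL2 rose by 1.01 ± 0.24 (log2, SE) in DMSO (edgeR adjusted p = 0.0118). Its difference in lapatinib was 1.98 ± 0.33 (edgeR adjusted p = 0.0018). BCL2 had 3 to 7 counts in NT lapatinib and entered that test only through its FOXA1 siRNA samples, so the call is given as a description. BAK1 rose by 0.40 ± 0.06 (edgeR adjusted p = 0.00152) and 0.30 ± 0.06 (edgeR adjusted p = 0.00413). PMAIP1 rose by 1.09 ± 0.25 in lapatinib (edgeR adjusted p = 0.00799). Its change in DMSO, 0.56 ± 0.19, had an edgeR adjusted p of 0.0481 and a DESeq2 adjusted p of 0.119, and the call was also lost without any of NT DMSO replicates 1, 2 or 3 or FOXA1 DMSO replicates 1 or 2 (adjusted p of up to 0.163). BIK fell by 0.81 ± 0.16 in lapatinib (edgeR adjusted p = 0.0039), with a change of -0.28 ± 0.19 in DMSO (edgeR adjusted p = 0.263). BBC3 (0.14 ± 0.19 in DMSO and 0.00 ± 0.12 in lapatinib) and MCL1 (0.06 ± 0.04 and -0.02 ± 0.05) were not called under either drug.

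The members' TPM was summed by role to see how RNA was distributed over the family. The BH3-only sum was 51.2 ± 2.15 TPM (SD, n = 3) in NT DMSO, 120.7 ± 4.28 in NT lapatinib, 41.6 ± 2.23 in FOXA1 DMSO and 79.9 ± 1.08 in FOXA1 lapatinib. The effector sum was 120.0 ± 5.44, 84.2 ± 1.60, 131.7 ± 11.6 and 92.7 ± 4.98 TPM in the same order. The pro-survival sum was 258.1 ± 1.93, 324.9 ± 14.7, 225.9 ± 3.68 and 255.2 ± 14.6 TPM. For each 100 TPM of pro-survival RNA there were 19.9 ± 0.895 TPM of BH3-only RNA in NT DMSO, 37.2 ± 1.92 in NT lapatinib, 18.4 ± 0.817 in FOXA1 DMSO and 31.4 ± 2.07 in FOXA1 lapatinib. The 2 lapatinib groups stood above the 2 DMSO groups, and FOXA1 lapatinib samples (29.2 to 33.3) stood below NT lapatinib samples (35.8 to 39.4). These sums were not tested, and BCL2L11 alone held 43.1% to 66.1% of the members' BH3-only TPM in the NT samples. The sums leave out the BH3-only genes BAD and BID and the pro-survival gene BCL2L2. Mean TPM of BAD was 97.8 in NT DMSO, 71.0 in NT lapatinib, 81.7 in FOXA1 DMSO and 53.9 in FOXA1 lapatinib. In the same order BID had 28.5, 13.6, 22.2 and 13.6 and BCL2L2 26.4, 30.7, 24.2 and 31.2. BAD and BID were lower with lapatinib, so the ratio describes the members and not the whole family.

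**Figure D3:**
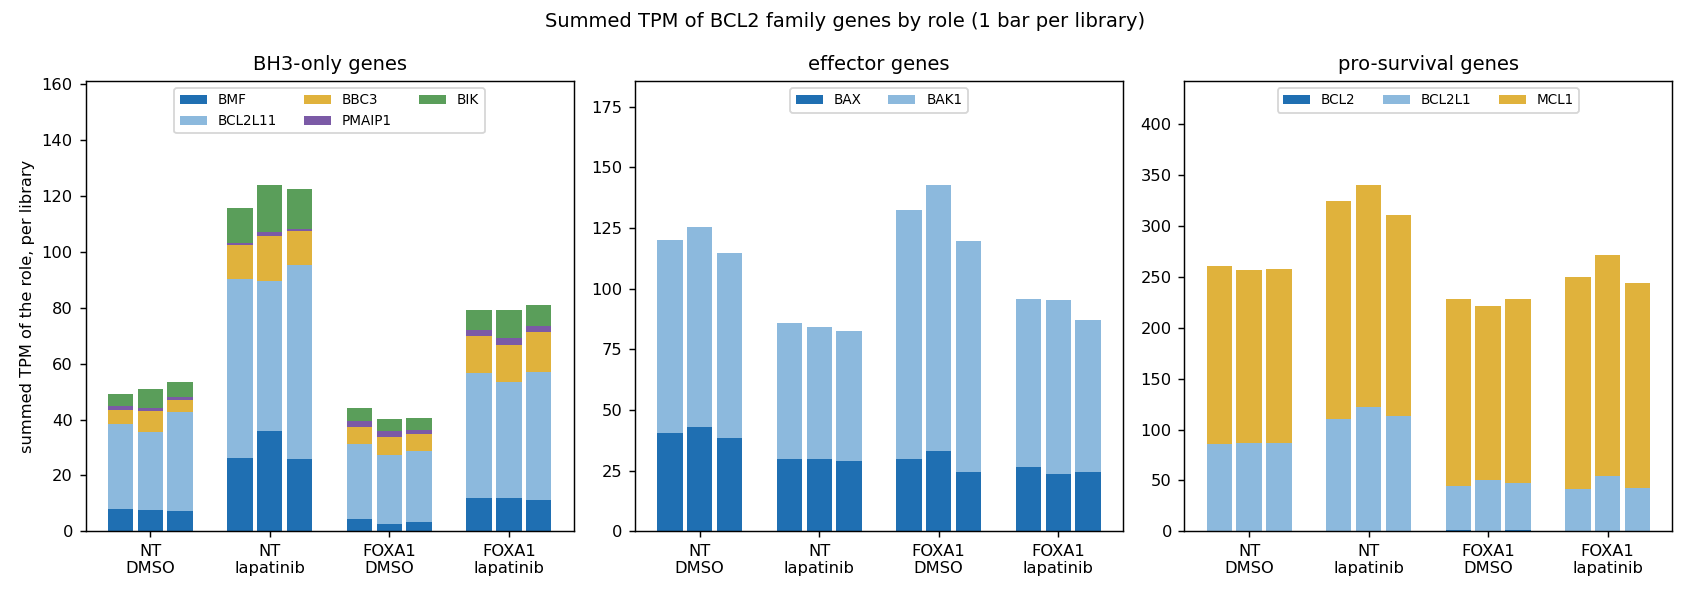
Summed TPM of the BH3-only, effector and pro-survival members (y axes, from 0), with 1 bar per library in the 4 groups (x axes) and colours for the genes. The BH3-only bars are highest in NT lapatinib at 115.8 to 123.9 TPM, and BCL2L1 is the part of the pro-survival bars that is smaller with FOXA1 siRNA.

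The composition of the members' pro-survival and effector RNA differed with the siRNA. The ratio of MCL1 to BCL2L1 TPM was 2.0 ± 0.0287 (SD, n = 3) in NT DMSO and 1.83 ± 0.107 in NT lapatinib, against 3.83 ± 0.398 in FOXA1 DMSO and 4.6 ± 0.550 in FOXA1 lapatinib. The share of MCL1 in the members' pro-survival TPM was 66.5% and 64.6% with NT siRNA and 78.9% and 82.0% with FOXA1 siRNA. The ratio of BAK1 to BAX TPM was 1.94 ± 0.0289 in NT DMSO and 1.85 ± 0.00678 in NT lapatinib, against 3.56 ± 0.288 and 2.75 ± 0.275 with FOXA1 siRNA. The BCL2L11 to BMF ratio was 4.15 ± 0.676 in NT DMSO, 2.21 ± 0.641 in NT lapatinib, 7.89 ± 1.65 in FOXA1 DMSO and 3.79 ± 0.337 in FOXA1 lapatinib.

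The rest of the pathway was described by lists of genes. Of 13 other BCL2 family genes 9 could be tested, and 4 were higher and 4 lower with lapatinib under either siRNA. BID, a BH3-only gene whose cleaved protein activates BAX and BAK, fell by 1.03 ± 0.08 (log2, SE) with NT siRNA (edgeR adjusted p = 1.75e-05), and BCL2L12 fell by 1.14 ± 0.08 (edgeR adjusted p = 9.67e-06). BAD, also a BH3-only gene, fell by 0.43 with NT siRNA (edgeR adjusted p = 0.000584) and 0.57 with FOXA1 siRNA (edgeR adjusted p = 0.00078). BNIP3L, a mitophagy receptor, rose by 0.98 ± 0.13 with NT siRNA (edgeR adjusted p = 0.000279) and 0.37 ± 0.07 with FOXA1 siRNA (edgeR adjusted p = 0.00285). With FOXA1 siRNA in DMSO 2 of the 9 were higher (4 with the replicate number as a block, and 1 to 4 when a sample was left out) and 3 lower, and in lapatinib 1 was higher and 2 lower (1 to 2 lower when any 1 sample was left out). BCL2A1, BCL2L10, BCL2L14 and HRK were not tested, their counts being too low.

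Downstream of the pores, 12 caspases and mitochondrial death factors were tested. Lapatinib left 2 higher and 5 lower with NT siRNA and 3 higher and 5 lower with FOXA1 siRNA. CYCS, the gene of cytochrome c, fell by 1.27 ± 0.09 (log2, SE) with NT siRNA (edgeR adjusted p = 1.32e-05), and CASP9, the initiator caspase of the mitochondrial pathway, rose by 0.99 ± 0.10 (edgeR adjusted p = 7.93e-05). FOXA1 siRNA left 3 higher and 4 lower in DMSO. The 3 higher became 1 to 2 when any 1 sample was left out. They became 1 with no count filter or with all 12 samples in 1 model, and 4 with the block. In lapatinib FOXA1 siRNA left 4 higher and 4 lower (5 higher with the block, 2 higher without FOXA1 lapatinib replicate 1). DFFB, the nuclease that cuts DNA in dying cells, fell by 1.11 ± 0.11 in DMSO and 0.80 ± 0.10 in lapatinib (edgeR adjusted p = 0.000178 and 0.000365).

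Of 7 inhibitor of apoptosis genes 6 were tested, with 3 higher and 2 lower with lapatinib and NT siRNA (1 lower by DESeq2, 1 to 2 when any 1 sample was left out) and 3 higher and 1 lower with FOXA1 siRNA. XIAP, which inhibits caspases directly, rose by 0.55 ± 0.05 (log2, SE) with NT siRNA (edgeR adjusted p = 5.34e-05), and BIRC5, or survivin, which also acts in mitosis, fell by 1.63 ± 0.22 (edgeR adjusted p = 0.00035). FOXA1 siRNA in DMSO left 2 higher and 1 lower (2 lower with the block, 1 to 2 higher and 0 to 1 lower when any 1 sample was left out), and in lapatinib 2 higher and 2 lower (1 to 3 and 1 to 2). Of 7 binders and turnover enzymes of BH3-only and MCL1 proteins, 2 were higher and 2 lower with lapatinib and NT siRNA, with log2 changes between -0.358 and 0.324. Every other scaling, tool, filter or model run on all 3 replicates called 3 lower, DYNLL1 being the additional gene (edgeR adjusted p = 0.0568 as reported), and leaving out any 1 sample gave 1 to 2 higher and 1 to 3 lower. With FOXA1 siRNA 0 were higher and 2 lower (3 higher with the block, 0 to 3 when any 1 sample was left out). FOXA1 siRNA left 3 of these 7 higher in DMSO (5 with the block, 1 to 2 when any 1 sample was left out) and 2 higher in lapatinib (3 higher and 1 lower with the block, 0 higher without FOXA1 lapatinib replicate 1 and 1 without NT lapatinib replicate 1 or 3, and 1 lower without NT lapatinib replicate 2).

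**Figure D4:**
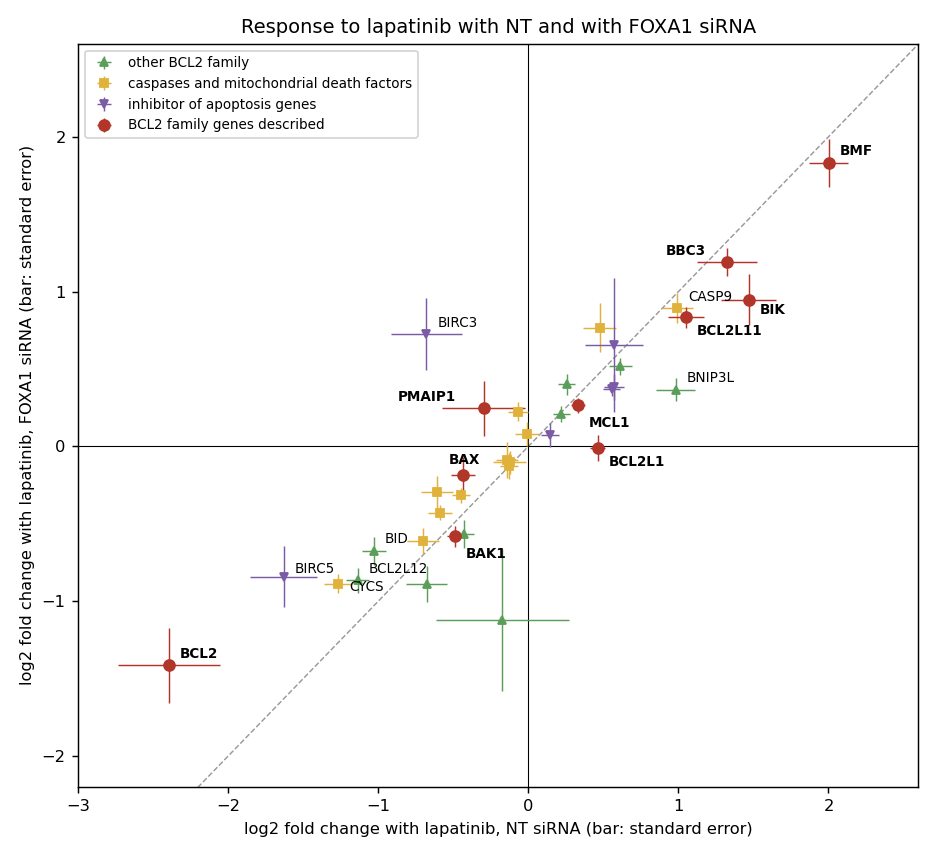
Log2 fold change with lapatinib under NT siRNA (x axis) and under FOXA1 siRNA (y axis), with standard errors, for the 10 genes (red circles) and the tested genes of 3 lists; the dashed line marks equal responses. BMF (2.0 and 1.83) and BBC3 (1.32 and 1.19) lie near the line, and BCL2L1 (0.46 and -0.01) lies below it.

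Of 14 transcription factors known to act on members, 13 were tested with lapatinib, with 6 higher and 3 lower under NT siRNA (1 to 3 lower when any 1 sample was left out) and 9 higher and 1 lower under FOXA1 siRNA (2 lower with the block, 1 to 2 when any 1 sample was left out). FOXO3, which acts on BCL2L11 and BBC3, rose by 1.88 ± 0.06 (log2, SE) with NT siRNA (edgeR adjusted p = 1.27e-06) and 1.5 ± 0.08 with FOXA1 siRNA (edgeR adjusted p = 4.52e-06), and FOXO4 rose by 1.60 ± 0.19 and 1.35 ± 0.17 (edgeR adjusted p = 0.000177 and 0.000264). E2F1 fell by 3.79 ± 0.15 and 3.01 ± 0.13 (edgeR adjusted p = 1.74e-06 and 2.54e-06). TP63 is counted among the 3 lower under NT siRNA and is the lower gene that the block adds under FOXA1 siRNA. It had at most 10 counts in any sample and entered the test with NT siRNA only through its DMSO samples, so its change is not read. FOXA1 siRNA left 1 higher and 4 lower in DMSO (3 and 6 with the block, 0 to 2 and 1 to 4 when any 1 sample was left out) and 1 higher and 4 lower of 12 tested in lapatinib (4 and 6 with the block, 1 to 3 and 4 to 5 when any 1 sample was left out).

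Proliferation genes moved together with the lapatinib changes. All 8 of the list were lower with lapatinib under each siRNA, the median log2 change being -1.5 (NT siRNA) and -0.935 (FOXA1 siRNA). FOXA1 siRNA left 1 higher and 5 lower in DMSO (0 to 1 higher and 2 to 7 lower when any 1 sample was left out), and 3 higher and 1 lower in lapatinib (6 and 2 with the block, 1 to 5 higher when any 1 sample was left out). CDK1, which drives mitosis, fell by 2.58 ± 0.18 (SE) with NT siRNA (edgeR adjusted p = 1.16e-05) and by 1.09 ± 0.13 with FOXA1 siRNA (edgeR adjusted p = 0.000153). The part of the change in proliferation in the members' values was not tested.

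Genes whose pattern over the 12 samples was nearest to a member were found among those with at least 100 normalized counts on average, by the root-mean-square difference in log2 normalized counts centred on NT DMSO. CCNG2 was nearest to BMF at 0.226 and PLAU followed at 0.242. BRPF3 at 0.102 and DTX2 at 0.115 were nearest to BCL2L11, with CASP9 at 0.135. For BBC3 the nearest were TMC4 at 0.116 and CCNDBP1 at 0.135, and for BIK SNED1 at 0.175 and ERMAP at 0.179. TOLLIP at 0.126 was among the 3 nearest to BCL2L1, LMNB1 at 0.309 was nearest to BCL2, and CDV3 at 0.228 to PMAIP1.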

How the data were processed

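RNA of 12 SKBR-3 samples was sequenced, and the labels' processing notes name RSEM, DESeq, R 3.2.2 and DESeq2 1.12.3 without saying what each did, while the study's methods name STAR, Salmon and the hg38 genome for its RNAseq. The authors deposited expected counts, TPM and FPKM per gene, a normalized signal and a mean transcript length, 1 file per sample. The kit is named differently in different fields of the labels, and the strand setting of the counts is not given in the sources used here. Expected counts (87.5% to 88.1% whole numbers) were rounded. Genes with a blank symbol held 0.0314% to 0.0459% of counts. FPKM and the deposited normalized signal were not used in tests.

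Each comparison was fitted on its 6 samples, and the interaction on all 12, with edgeR 4.0.16 (R 4.3.3, TMM scaling, quasi-likelihood test, genes with at least 10 counts in 1 or more samples, Benjamini-Hochberg adjustment over all genes tested). A call is an adjusted p below 0.05, and a stricter call also needs a change of 1 or more in log2 units. Normalized counts are counts divided by the TMM-scaled library size, multiplied by the mean library size. The SE is the log2 fold change over the root of the F statistic. TPM served to compare levels between genes. Alternatives were RLE and upper-quartile scaling, DESeq2 1.42.0, other count filters, all 12 samples in 1 model, the replicate number as a block, and leaving out each sample. In 18 pairs of same-numbered samples of different groups the deviations from the group mean correlated at 0.24 to 0.622 over 12170 genes (mean 0.388), against -0.454 to 0.194 for different numbers (mean -0.183), so the numbers pair the samples. The pairing is read from the data, and the fits above do not use it. The tests were tried on simulated counts, drawn independently for each sample with a single dispersion for all genes and no effect of replicate number. In these, 76% to 85.5% of 200 changed genes were called in the 4 comparisons of 6 samples and 59.5% in the interaction. Of the calls made there, 6.75% were false for lapatinib with NT siRNA, 1.88% for lapatinib with FOXA1 siRNA, 10.1% for FOXA1 siRNA in DMSO, 4.47% for FOXA1 siRNA in lapatinib and 0% for the interaction. The data differ from this setting in the pairing of samples and in the far larger share of genes called. The simulated rates therefore do not measure the errors of the fits above.

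Text names the 10 members, FOXA1 and the genes most like the members with a stricter call. For each list it names the genes with a stricter call (at most 4 by size) or else up to 2 called. BNIP3L, BAD, BCL2L2, CASP9, XIAP and the genes with a called interaction were named after their values were seen. Members and lists were chosen with earlier results of these data known. Promoter windows came from RefSeq (GRCh38.p14) and exon overlaps from GENCODE. Amino acid sequences were not used here. Intervals of counts cover counting error only. Results for some genes are not reported here.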

Additional observations from a re-analysis of the deposited data

Results flagged for a closer look

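The response of BCL2L1 to lapatinib differed between siRNAs by -0.46 (log2, FOXA1 minus NT siRNA), with the gene rising in NT cells and its 2 groups overlapping with FOXA1 siRNA, and the test of the difference itself passed (edgeR adjusted p = 0.019). The cause was not tested.

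In genes of the wider lists the same test passed for BNIP3L (-0.60), FOXO3 (-0.37) and TP53INP1 (-0.91), which responded less with FOXA1 siRNA. It passed for BIRC3 (1.42), with log2 changes of -0.68 ± 0.24 (SE) with NT siRNA and 0.73 ± 0.23 with FOXA1 siRNA, and for E2F1 (0.80) and CDK1 (1.5), which fell less with FOXA1 siRNA. HTRA2 (0.31) and XPC (0.29) were higher in response with FOXA1 siRNA. When a sample was left out or another setting was used, the calls of HTRA2 and FOXO3 were lost in 11 of 18 alternatives, E2F1 in 9, BNIP3L and TP53INP1 in 8, XPC in 5 and BIRC3 in 1 (adjusted p = 0.0575 without NT lapatinib replicate 3). CDK1 kept its call in all 18. The call of BIRC3 as lower with NT siRNA was itself lost in 6 of 13 alternatives (DESeq2 adjusted p = 0.0775) and that as higher with FOXA1 siRNA in 4 of 13 (DESeq2 adjusted p = 0.0544).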

How the results depend on the processing

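The 50 results for single members were run in 697 alternatives, and in 15 of these an uncalled change took the other sign. Of the 50 results, 46 kept their side of the threshold in every alternative, and 0 called changes reversed. The replicate block changed no call of a member. The others lost their call in 18 alternatives, named above: PMAIP1 with FOXA1 siRNA in DMSO in 8 of 13 (DESeq2 adjusted p = 0.119, no filter 0.0621, all 12 samples 0.0638), BCL2L11 there in 4, BAX with FOXA1 siRNA in lapatinib in 5 (DESeq2 adjusted p = 0.0573), and the BCL2L1 interaction in 1. Members with a stricter call lower with lapatinib and NT siRNA went from 1 to 0 with at least 10 counts in every sample, since BCL2 was then not tested. Members with a stricter call higher with FOXA1 siRNA went from 1 to 0 in DMSO with all 12 samples in 1 model (0 to 1 when a sample was left out, 0 without NT DMSO replicate 1 or 3 or FOXA1 DMSO replicate 1), and from 2 to 1 in lapatinib with at least 10 counts in every sample, as BCL2 was not tested (1 to 2 when a sample was left out, 1 without NT lapatinib replicate 1 or 3). For the interaction over all genes the replicate block gave 1561 higher and 1292 lower in place of 559 and 449, and leaving out a sample gave 300 to 782 and 242 to 583, and 0 to 1 members lower. Of 362 results for the list genes 234 kept their side of the threshold in every alternative, and 0 called changes reversed. A call was lost in 267 of 5051 alternatives and gained in 136. BCL2, with 3 to 7 counts in NT lapatinib, is limited by depth.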
